A study of Mus musculus with 9 samples.

Results

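The 39 genes described here encode the machinery that builds the mitotic spindle, attaches chromosomes to it and times their separation. They were taken by symbol from a list of spindle checkpoint, kinetochore, mitotic kinase, kinesin and G2/M genes, by a rule that names no value, and all 39 were among the 53801 genes of the count table and among the 22452 genes that passed the filter on low counts. RNA-seq had been carried out on a line of cultured mouse spermatogonial stem cells (SSCs), the germline stem cells of the testis, to ask what PRMT5, an arginine methyltransferase, and its catalytic activity do in these cells. The cells were Prmt5 flox/flox and carried Rosa26-CreERT2, a Cre recombinase that acts in every cell type once 4-hydroxytamoxifen (4OHT) is added, and all 9 libraries came from cells treated with 4OHT at 1 µM, which deletes Prmt5. Of these, 3 libraries had 4OHT alone (4OHT), 3 had a lentiviral construct of the catalytically dead PRMT5 (E444Q), labelled MU, and 3 had the wild-type PRMT5 (WT) construct, labelled OE. They are called the 4OHT, E444Q and WT libraries. The labels do not spell out MU and OE, so both construct names are readings of them, and cells that kept Prmt5 were not analysed here. Whether the 3 libraries of a group came from separate cultures is not stated, and p-values then measure only the spread between these libraries, which may be technical.

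In dividing cells, CDK1 bound to a B-type cyclin starts mitosis, and Aurora and Polo-like kinases with kinesin motors shape the spindle. Kinetochores, protein assemblies built on the centromere, hold spindle microtubules, and the spindle checkpoint (BUB1, BUBR1, MAD1, MAD2 and TTK) keeps the anaphase-promoting complex and its activator CDC20 silent until every kinetochore is attached. Most of these transcripts are made in G2 and M phase, and in cultured SSCs they mark the dividing cells, whether stem cells or progenitors on the way to differentiation.

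Total counts were 78751996 to 95370711 in the 4OHT libraries, 192033300 to 365719548 with E444Q and 79941857 to 154557863 with WT. About 4 counts per read pair were assumed, as how the counts were derived is not stated. The members had from 77 counts (Aurkc) to 173189 counts (Top2a) in a single library, so Aurkc rested on few read pairs in its lowest library. Of the 39, 38 had a mean of at least 5 CPM, the count relative to the TMM-scaled library total. The median coefficient of variation of the members between replicates was 6.78% in the 4OHT libraries, 3.13% with E444Q and 3.48% with WT, and Aurkc varied most in each group. Prmt5 itself averaged 30.3 ± 1.92, 146 ± 0.957 and 1076 ± 7.61 CPM in the 4OHT, E444Q and WT libraries (SD, n = 3 each). The constructs therefore differed in the amount of Prmt5 RNA as well as in the mutation, and these cannot be told apart.

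RefSeq promoter windows (GRCm38.p6, 250 bases before to 50 after a transcript start) were found for 34 of the 39 genes and not for Aurkb, Incenp, Spc24, Kif20a and Tpx2. They were searched on both strands for letters known from promoters of G2/M genes, the cell cycle gene homology region (CHR, TTTGAA), its variant TTCGAA and the CCAAT box (CCAAT). The CHR letters were in 22 of the 34 genes (64.7%), against 20.2% of all 27025 genes with a window, and CCAAT was in 24 (70.6%), against 41.1%. Both were present in 20 members (58.8%), against 7.97% of all genes, and the variant was in Bub1, Bub1b and Top2a (8.82% of members against 1.8%). A pair of CCAAT boxes 30 to 35 bases apart, a spacing chosen after the matches were seen, was found in 8 members (23.5%), namely Cdca8, Cdk1, Ccnb1, Ccnb2, Aurka, Spc25, Hmmr and Ckap5, against 1.85% of all genes. A match is a description of the letters, and binding of a factor was not measured. The stretches from 100 bases before to 30 after the start are shown for genes whose values are set side by side later: Cdc20 and Ccnb2, which were lower with both constructs, Ccnb1, Cdk1, Ttk and Spc25, which were higher, and Nusap1, which was higher and holds no match in its window. Capitals mark the matches, with TTCAAA and ATTGG standing for TTTGAA and CCAAT on the other strand.
Cdc20 (chr4:118437314-118437443, minus strand): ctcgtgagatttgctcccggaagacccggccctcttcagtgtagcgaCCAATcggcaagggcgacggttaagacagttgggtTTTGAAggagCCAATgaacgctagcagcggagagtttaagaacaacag
Ccnb2 (chr9:70421525-70421654, minus strand): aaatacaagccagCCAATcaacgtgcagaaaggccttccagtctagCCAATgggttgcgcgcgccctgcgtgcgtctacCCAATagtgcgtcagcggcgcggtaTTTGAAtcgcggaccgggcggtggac
Ccnb1 (chr13:100786457-100786586, minus strand): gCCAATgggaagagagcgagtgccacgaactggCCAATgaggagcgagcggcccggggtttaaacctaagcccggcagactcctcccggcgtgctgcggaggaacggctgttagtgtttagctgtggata
Cdk1 (chr10:69352883-69353012, minus strand): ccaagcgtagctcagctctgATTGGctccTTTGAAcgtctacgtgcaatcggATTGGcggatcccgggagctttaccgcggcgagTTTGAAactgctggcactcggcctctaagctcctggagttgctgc
Ttk (chr9:83834589-83834718, plus strand): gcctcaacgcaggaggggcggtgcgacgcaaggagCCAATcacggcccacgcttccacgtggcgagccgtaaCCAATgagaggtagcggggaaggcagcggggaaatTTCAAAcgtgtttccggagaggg
Spc25 (chr2:69206184-69206313, minus strand): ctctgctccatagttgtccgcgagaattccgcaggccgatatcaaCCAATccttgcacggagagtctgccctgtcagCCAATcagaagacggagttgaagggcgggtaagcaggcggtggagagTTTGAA
Nusap1 (chr2:119618198-119618327, plus strand): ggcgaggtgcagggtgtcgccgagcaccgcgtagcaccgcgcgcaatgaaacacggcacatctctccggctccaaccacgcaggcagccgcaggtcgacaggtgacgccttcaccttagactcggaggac

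Counting the first base of the transcript as 1, with no position 0, Ccnb2 holds CCAAT at positions -87, -54 and -21, an even spacing, and TTTGAA at 5, with a further TTTGAA upstream of the stretch shown. Cdc20 holds TTTGAA at -18 between CCAAT boxes at -53 and -8. Spc25, which was higher with the constructs, also holds both motifs, with CCAAT at -55 and -23 and TTTGAA at 25. No match was found in Nusap1, Nuf2, Kif18a, Mad2l1, Birc5, Pttg1 and Tacc3, which were higher with both constructs, or in Mad1l1, called in neither comparison. Whether the matches go with the fold changes was not tested.

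**Figure D1:**
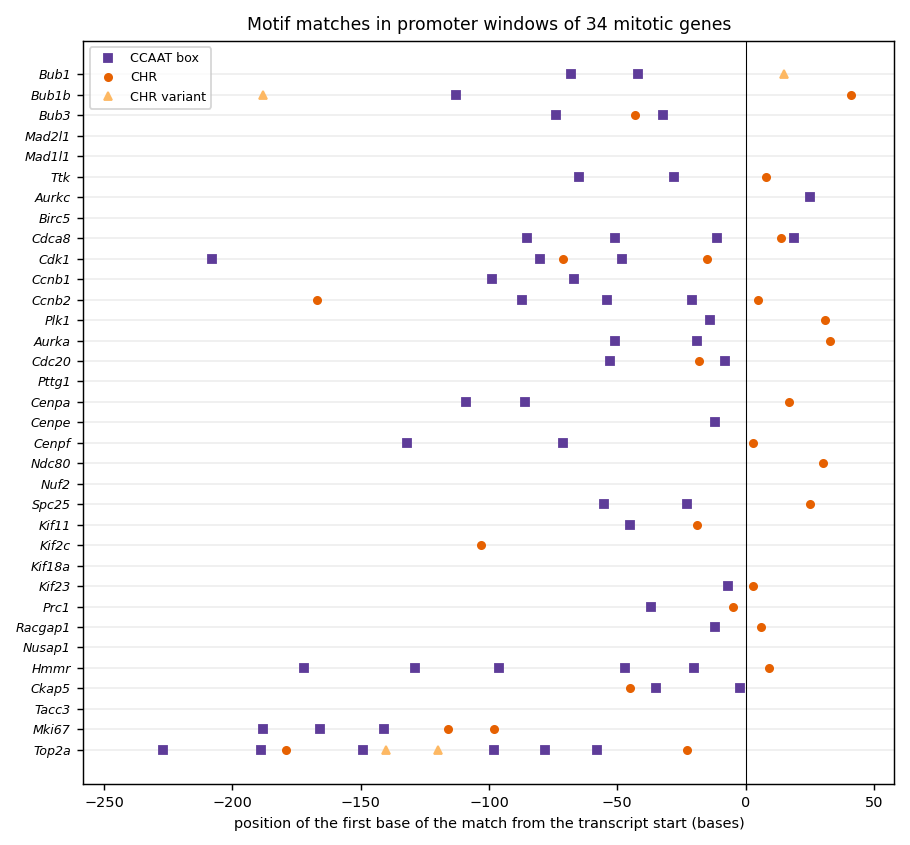
Positions of CHR, CHR variant and CCAAT matches (first base of the match, in bases from the transcript start, x axis) in the RefSeq windows of 34 genes (rows, by role); for genes with several windows, such as Bub3 and Prc1, the one with the lowest coordinate is drawn. CCAAT boxes lie mostly upstream of the start and CHR matches near it, and 7 rows from Mad2l1 to Tacc3, with Mad1l1, hold none.

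Compared with the 4OHT libraries, most of the mitotic genes were higher with either construct. With E444Q, 34 of 39 were higher and 2 were lower past an adjusted p of 0.05 (edgeR's quasi-likelihood test with Benjamini-Hochberg adjustment over all genes tested), where 56.0% of all genes tested were called (29.5% of all tested as higher and 26.5% as lower). With WT, 35 were higher and 2 lower, where 57.8% of all genes were called (29.9% as higher and 27.9% as lower). Among the 12171 genes with a mean of at least 5 CPM, which hold 38 of the members, 74.2% and 75.6% were called, 37.8% and 39.4% as higher and 36.4% and 36.2% as lower. The median log2 fold change of the members was 0.44 with E444Q, from -0.38 to 2.30, and 0.54 with WT, from -0.20 to 2.23, while the medians over all genes tested were 0.0435 and 0.0179. Both comparisons share the 4OHT libraries, so their counts are given side by side and are not independent of each other. No group with an empty lentivirus was among the libraries. In both comparisons with 4OHT, PRMT5 from the construct and the lentiviral transduction therefore cannot be told apart. The same 34 genes were higher in both, Ccnb2 and Cdc20 were lower in both, Incenp was higher only past the threshold with WT, and Mad1l1 and Cenpa passed it in neither. In 34 members every E444Q library was above every 4OHT library and in 2 below, where 33.8% and 30.1% of all genes had these orders, and for WT in 35 above and 2 below, where 31.5% and 30.1% did. With a further threshold of a 1.5-fold change, 16 members were higher with E444Q, 17 with WT, and the lower members were 0 in each. The share of all genes past both thresholds is not given here, so these counts have no background to be read against. In bulk RNA, fewer cells of a type and less RNA per cell cannot be told apart, so these values do not separate a larger share of dividing cells from more of each transcript per cell.

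**Figure D2:**
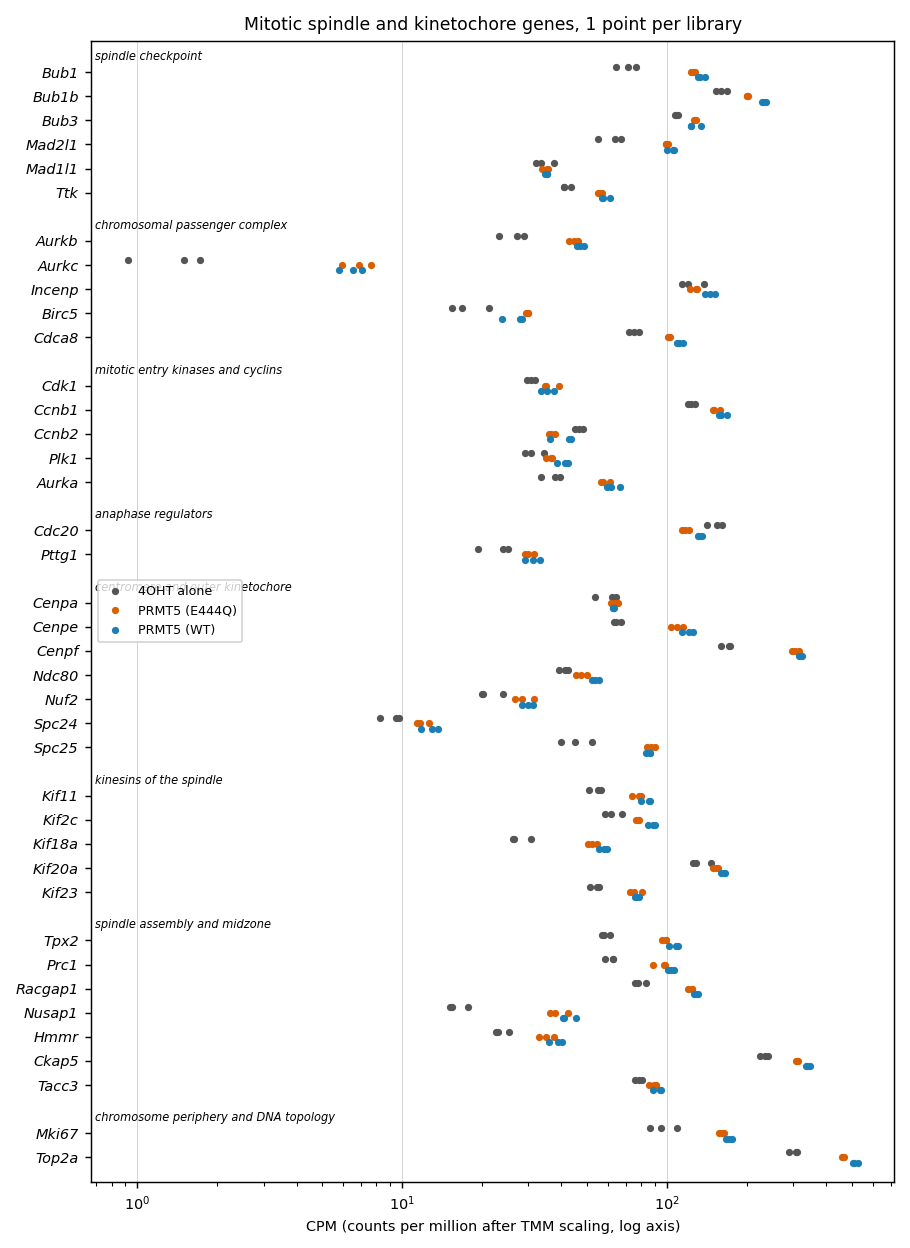
CPM of the 39 genes (x axis, log scale) in each of the 9 libraries, ordered by role, with 1 point per library and colour for the group. In most rows the 4OHT points lie to the left of the others, and in Ccnb2 and Cdc20 they lie to the right.

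Each construct had 5 of the 6 spindle checkpoint genes past the threshold as higher, with medians over the 6 of 0.37 and 0.51 on the log2 scale for E444Q and WT against 4OHT. Bub1, the kinase that recruits the checkpoint to kinetochores, was at 76.6, 64.2 and 71.4 CPM in the 4OHT libraries, at 126.0, 123 and 127.5 CPM with E444Q and at 132, 134 and 139 CPM with WT. Every construct library was above every 4OHT library, with log2 fold changes of 0.83 (SE 0.06, adjusted p = 4.21e-08) and 0.93 (SE 0.06, adjusted p = 1.12e-08). Mad2l1, which encodes MAD2, the inhibitor that captures CDC20, was at 66.9, 63.8 and 54.97 CPM with 4OHT, at 101, 99.6 and 99.5 CPM with E444Q and at 99.99, 107 and 106 CPM with WT, or 1.62-fold and 1.68-fold higher. Its partner behaved otherwise. Mad1l1, which encodes MAD1, the protein that holds MAD2 at kinetochores, was at 32.2, 33.6 and 37.5 CPM with 4OHT, at 35.5, 33.9 and 35.2 CPM with E444Q and at 35.4, 34.7 and 35.2 CPM with WT. The Mad1l1 groups overlapped, and its log2 fold changes of 0.016 (95% interval -0.12 to 0.15) and 0.026 (95% interval -0.11 to 0.16) changed sign under other scalings, to -0.0142 with E444Q under relative log expression and to -0.0158 and -0.0111 with the counts divided by 4. Ttk, the kinase that starts checkpoint signalling, was 1.34-fold and 1.40-fold higher, Bub1b, which encodes BUBR1, 1.25-fold and 1.44-fold, and Bub3, the adaptor of both BUB kinases, 1.17-fold in each.

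The chromosomal passenger complex corrects faulty attachments at the centromere and later moves to the midzone. Its mitotic kinase gene Aurkb was at 23.2, 27.3 and 28.8 CPM with 4OHT, at 42.6, 46.2 and 44.8 CPM with E444Q and at 47.1, 45.8 and 48.6 CPM with WT, without overlap between 4OHT and either construct. The largest fold of the 39 genes belonged to Aurkc (chr7:6995300-7003091), the Aurora kinase of germ cells and meiosis, which was at 1.5, 0.92 and 1.72 CPM with 4OHT, at 6.88, 7.61 and 5.91 CPM with E444Q and at 7.05, 5.78 and 6.55 CPM with WT. Its folds were 4.92 (log2 2.30, SE 0.196) and 4.68 (log2 2.23, SE 0.197), at the lowest level of any member. Birc5, which encodes survivin, was 1.66-fold and 1.5-fold higher, and Cdca8, which encodes borealin, 1.35-fold and 1.49-fold. Incenp, the scaffold of the complex, was at 114, 120.3 and 138 CPM with 4OHT, at 129.6, 129 and 122 CPM with E444Q and at 139, 152 and 145 CPM with WT. Its log2 fold change was 0.033 (95% interval -0.11 to 0.18, adjusted p = 0.71) with E444Q and 0.23 (95% interval 0.085 to 0.37, adjusted p = 0.00931) with WT. The call for Incenp with WT was lost without the first 4OHT library (adjusted p = 0.0551), the lowest of the 3.

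Among the kinases and cyclins of mitotic entry, the B-type cyclins moved in opposite directions. Ccnb1, the main mitotic cyclin, was at 127, 121 and 123 CPM with 4OHT, at 151, 149 and 159 CPM with E444Q and at 158, 169 and 161 CPM with WT, with all construct libraries above all 4OHT libraries. Ccnb2 (chr9:70407692-70421547), the cyclin that resides largely at the Golgi, was at 46.8, 45.0 and 48.4 CPM with 4OHT, at 37.9, 36.6 and 36.0 CPM with E444Q and at 36.3, 42.8 and 43.5 CPM with WT. All construct libraries were below all 4OHT libraries, with log2 fold changes of -0.34 (SE 0.069, adjusted p = 0.00071) and -0.19 (SE 0.07, adjusted p = 0.03). The Ccnb2 call with WT was lost without the filter on low counts (adjusted p = 0.0905), without the third 4OHT library (0.0613) and without the first WT library (0.18, where the log2 fold change was -0.101). Their kinase gene Cdk1 was only 1.18-fold and 1.15-fold higher (adjusted p = 0.0075 and 0.0178), and with WT this call was lost without the second 4OHT library (0.0643) or the third WT library (0.118). Aurka, the Aurora kinase of spindle poles, was 1.58-fold and 1.70-fold higher, and Plk1, which drives centrosome maturation, 1.15-fold and 1.29-fold. The Plk1 call with E444Q was lost without the first or the second 4OHT library (adjusted p = 0.114 and 0.0541) or without any of the E444Q libraries (0.0614, 0.104 and 0.0513).

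The anaphase regulators also split. Cdc20 (chr4:118432901-118437352), the activator of the anaphase-promoting complex and the target of the checkpoint, was at 141, 154 and 162 CPM with 4OHT, at 114.5, 117 and 121 CPM with E444Q and at 136, 132 and 131 CPM with WT. The groups did not overlap, with E444Q lowest and 4OHT highest. Against 4OHT the log2 fold change was -0.38 (SE 0.053, adjusted p = 3.32e-05) with E444Q and -0.20 (SE 0.053, adjusted p = 0.00638) with WT. Of its exon length, 2.84% is shared with Elovl1 on the other strand, which was also lower with the constructs (43.6, 29.8 and 29.99 CPM in the order 4OHT, E444Q, WT). Whether the counting used strand is not stated, and the part of Elovl1 reads in the Cdc20 value was not tested. Pttg1, which encodes securin, the inhibitor of separase, was 1.32-fold and 1.37-fold higher.

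Among the 7 centromere and outer kinetochore genes, 6 passed the threshold as higher in both comparisons, and their median log2 fold changes were 0.43 and 0.49. Cenpf, a large protein of the outer kinetochore that accumulates in G2, was at 172, 159.9 and 173 CPM with 4OHT, at 315, 296 and 306 CPM with E444Q and at 323, 315 and 324 CPM with WT, without overlap between 4OHT and either construct. The subunits of the NDC80 complex, which binds the microtubule end, had unequal fold changes. Spc25 was at 52.2, 44.9 and 39.7 CPM with 4OHT, at 90.0, 84.5 and 86.9 CPM with E444Q and at 83.2, 86.1 and 86.8 CPM with WT, a log2 fold change of 0.94 (95% interval 0.77 to 1.10) and 0.91 (95% interval 0.74 to 1.07). Ndc80 itself rose by 0.22 (95% interval 0.096 to 0.34) and 0.40 (95% interval 0.27 to 0.52), Nuf2 by 0.43 and 0.48 and Spc24 by 0.38 and 0.49 on the same scale. The intervals of Spc25 and Ndc80 did not overlap in either comparison, and the difference between the genes was not tested. Cenpe, the kinesin that carries chromosomes to the spindle equator, was 1.69-fold and 1.85-fold higher. Cenpa, the histone variant that marks the centromere, was at 61.9, 64.0 and 53.4 CPM with 4OHT, at 65.6, 61.4 and 63.8 CPM with E444Q and at 62.5, 62.9 and 62.4 CPM with WT. The Cenpa groups overlapped, with log2 fold changes of 0.089 (adjusted p = 0.262) and 0.068 (adjusted p = 0.395), and intervals that reach from -0.049 to 0.227 and from -0.071 to 0.206.

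All 5 spindle kinesins were higher with each construct. Kif18a, which shortens kinetochore microtubules at the plus end and is needed for the division of germ cells, was at 30.8, 26.3 and 26.4 CPM with 4OHT, at 52.3, 50.3 and 54.5 CPM with E444Q and at 55.5, 59.6 and 58.1 CPM with WT, or 1.88-fold and 2.08-fold higher. Kif11, which pushes the spindle poles apart, was 1.44-fold and 1.55-fold higher, and Kif2c, a microtubule depolymerase of the centromere, 1.24-fold and 1.40-fold. Kif23, the motor of the cytokinetic midzone, was 1.41-fold and 1.43-fold higher. Kif20a, a midzone kinesin, changed least of the 5, at 1.14-fold and 1.22-fold, and 29.3% of its exon length is shared with Cdc23 on the other strand, so its reads may be split. The Kif20a call with E444Q was lost without the first 4OHT library (adjusted p = 0.0501) or the second E444Q library (0.0661).

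The 7 genes of spindle assembly and midzone were all higher, and as a role they had the second highest medians among roles with at least 5 genes with E444Q (0.63) and the highest with WT (0.70). Nusap1 (chr2:119618298-119651244), which bundles microtubules near chromosomes, was at 17.7, 15.5 and 15.1 CPM with 4OHT, at 42.3, 36.3 and 37.7 CPM with E444Q and at 40.8, 45.6 and 40.6 CPM with WT. Its lowest construct library was well above the highest 4OHT library, and the folds were 2.41 (log2 1.27, SE 0.082, adjusted p = 1.35e-08) and 2.63 (log2 1.40, SE 0.082, adjusted p = 4.72e-09). Tpx2, which activates Aurora A on the spindle, was 1.68-fold and 1.82-fold higher, Prc1, which crosslinks the midzone, 1.55-fold and 1.69-fold, and Racgap1, which joins Kif23 in the centralspindlin complex, 1.55-fold and 1.63-fold. Hmmr, a spindle pole protein, was 1.48-fold and 1.62-fold higher. The microtubule polymerase Ckap5 was at 240.5, 224.5 and 235 CPM with 4OHT, at 313, 311 and 307.5 CPM with E444Q and at 347, 338 and 335 CPM with WT, so the 3 groups did not overlap. Its binding partner Tacc3 was 1.13-fold and 1.18-fold higher, and the call with E444Q was lost without the third library of that group (adjusted p = 0.0653).

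Mki67, which encodes the Ki-67 protein that coats mitotic chromosomes and marks cycling cells, was at 95.4, 86.4 and 109 CPM with 4OHT, at 165, 157 and 162 CPM with E444Q and at 171, 167 and 176 CPM with WT. Top2a, the topoisomerase that untangles sister chromatids, was at 308, 289.8 and 310.1 CPM with 4OHT, at 464, 457.5 and 468 CPM with E444Q and at 527, 507 and 505 CPM with WT. In both genes the 3 groups did not overlap, and the order was 4OHT, E444Q, WT. The folds against 4OHT were 1.66 and 1.77 for Mki67 and 1.53 and 1.70 for Top2a.

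Between the constructs the differences were small. E444Q against WT gave 1 member past the threshold, Bub1b, and 38 that did not pass it, where 3.17% of all genes were called, 2.12% as higher and 1.06% as lower. Bub1b (chr2:118598211-118641591) was at 154, 161 and 169 CPM with 4OHT, at 201, 201 and 202 CPM with E444Q and at 228, 237 and 234 CPM with WT. The E444Q libraries were between 4OHT and WT, 13.5% below WT, with a log2 fold change of -0.21 (SE 0.046, 95% interval -0.31 to -0.11, adjusted p = 0.0247). This call was lost without any single E444Q library (adjusted p = 0.124, 0.129 and 0.121), without the second or the third WT library (0.1 and 0.109) and with no filter on low counts (0.134), and over all alternatives the adjusted p ran from 0.000381 to 0.134. A model of only the 6 construct libraries called 9 members lower, namely Bub1b, Incenp, Cdca8, Plk1, Cdc20, Ndc80, Kif2c, Ckap5 and Top2a, where it called 6.72% of 23304 genes, 3.19% as lower. DESeq2 called 4, which were Bub1b, Cdc20, Ckap5 and Top2a, where it called 4.3% of 26020 genes, 1.48% as lower. Without the third 4OHT library 6 members were called, and without the first 4OHT library 2. The share of all genes called in these fits is not given here, so these counts have no background to be read against.

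Most of the members nevertheless lay slightly lower with E444Q. The log2 fold change was below 0 in 33 of 39, against 48.0% of all genes tested, with a median of -0.10, from -0.21 (Bub1b) to 0.15 (Birc5), beside a median of 0.00801 over all genes tested. In 17 members the highest E444Q library was below the lowest WT library, where 12.8% of all genes had this order, and in 1 member, Birc5, every one was above, where 13.0% did. Among the genes with a mean of at least 5 CPM, 19.5% had the lower order, 55.1% had a log2 fold change below 0 and the median was -0.0126. An unadjusted p under 0.05 was reached by 13 members, all of them lower, where 12.4% of all genes tested reached it, 4.91% as lower, and 6.89% of the genes with at least 5 CPM reached it as lower. Values below 0 were also frequent in other lists, with 73 of 99 further segregation genes, among them 13 of 13 of cohesin and separase and 8 of 8 of condensin, 31 of 38 DNA replication genes and 9 of 10 germ cell markers. The largest differences after Bub1b were those of Incenp at -0.20 (95% interval -0.34 to -0.053, adjusted p = 0.179), Cdc20 at -0.18 (95% interval -0.30 to -0.067, adjusted p = 0.102) and Kif2c at -0.18 (95% interval -0.30 to -0.059, adjusted p = 0.135). Over the 39 genes the 95% intervals reached from -20.9% (Incenp) to 37.4% (Aurkc, the member with the lowest level). The next highest upper bound was that of Birc5, and 13 of the 39 intervals lay below 0 and 0 above. For each gene, a p that missed the threshold leaves room for changes within its own interval.

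The other 6 members had positive values. Birc5 was at 29.9, 29.5 and 29.8 CPM with E444Q and at 23.9, 27.9 and 28.5 CPM with WT, a log2 fold change of 0.15 (95% interval -0.071 to 0.37), the first WT library being the low one. Aurkc (0.074), Cdk1 (0.033), Spc25 (0.030), Cenpa (0.021) and Bub3 (0.003) were positive on the log2 scale. All of these but Birc5 and Spc25 changed sign when a single library was left out, and Bub3 also under relative log expression (-0.00722) and DESeq2 (-0.00154). Among the roles, the medians ran from -0.125 for spindle assembly and midzone and -0.113 for kinesins to -0.0699 for the kinetochore and -0.0619 for the checkpoint.

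**Figure D3:**
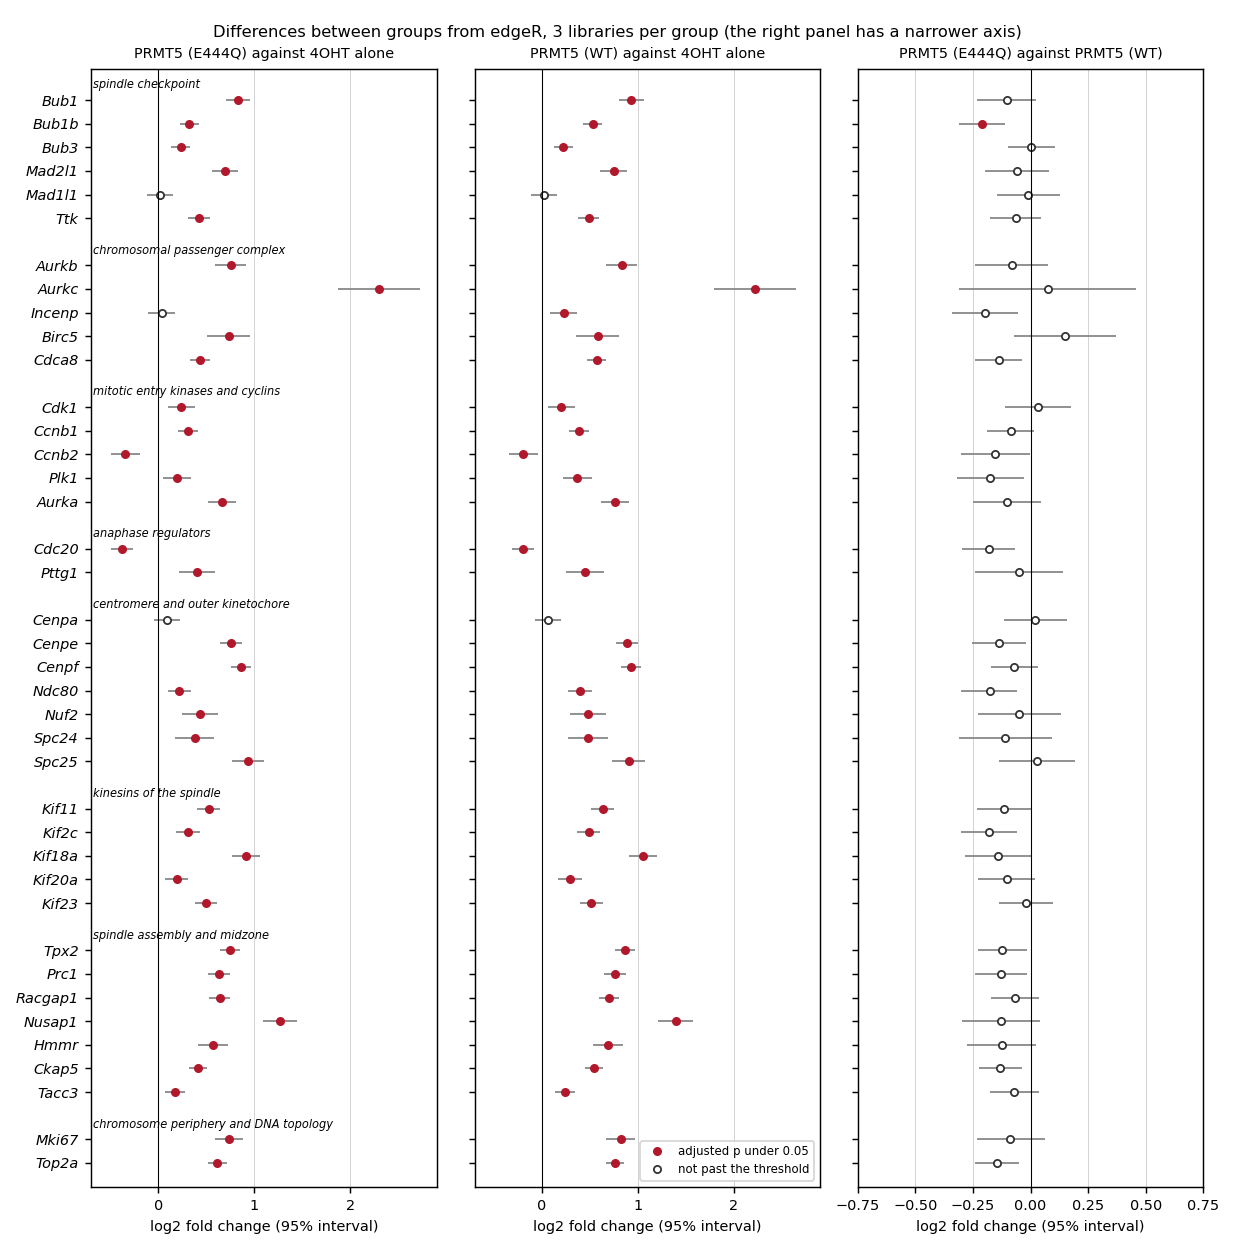
Log2 fold changes from edgeR (x axes, points) with 95% intervals (lines) for the 39 genes by role, with PRMT5 (E444Q) against 4OHT on the left, PRMT5 (WT) against 4OHT in the middle and PRMT5 (E444Q) against PRMT5 (WT) on the right, on a narrower axis. Filled points passed an adjusted p of 0.05: 36, 37 and 1 of 39.

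Per kilobase of exon, Cdc20 had the highest level of the 39 genes in every group, at 81.6, 62.8 and 71.3 CPM per kb in the order 4OHT, E444Q, WT, and Aurkc the lowest, at 0.906, 4.46 and 4.24 CPM per kb. The next places were taken by Top2a (33.6, 51.4 and 56.9 CPM per kb) and Bub1b (37.7, 47.2 and 54.5 CPM per kb), which stood in the reverse order in the 4OHT libraries. Ccnb2 moved from rank 5 with 4OHT to ranks 11 and 10 with the constructs, and Nusap1 from rank 35 to ranks 30 and 29. Since each library holds both genes of a pair, ratios within a library do not depend on its scaling, and the following pairs were chosen after their values were seen. The exon length used is that of all annotated exons of a gene together, 4217 bases for Ccnb1 and 1531 for Ccnb2, and the transcripts made may be shorter. Levels and ranks across genes and the size of a ratio depend on this length, while the change of a ratio between groups does not. The ratio of Ccnb2 to Ccnb1 per kb was 1.01, 1.03 and 1.08 in the 4OHT libraries, 0.69, 0.676 and 0.625 with E444Q and 0.633, 0.70 and 0.747 with WT, lower with both constructs. The activator to inhibitor ratio Cdc20 to Mad2l1 was 9.48, 10.9 and 13.2 with 4OHT, 5.10, 5.26 and 5.46 with E444Q and 6.10, 5.57 and 5.59 with WT. The constructs did not overlap in this ratio, with means of 5.27 ± 0.176 and 5.75 ± 0.301 (SD, n = 3 each), both below the mean of 11.2 ± 1.89 with 4OHT. For Bub1b, whose product also inhibits CDC20, the constructs did overlap, as Cdc20 to Bub1b was 2.1, 2.19 and 2.19 with 4OHT, 1.3, 1.33 and 1.37 with E444Q and 1.36, 1.28 and 1.28 with WT. Mad2l1 to Mad1l1 was 0.789 ± 0.138 with 4OHT, 1.25 ± 0.0271 with E444Q and 1.29 ± 0.0563 with WT (SD, n = 3 each). Aurkc to Aurkb was 0.102 ± 0.0322, 0.295 ± 0.0349 and 0.265 ± 0.023 in the same order, with the constructs overlapping. A ratio shows that 2 transcripts changed unequally and does not say which of them did.

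**Figure D4:**
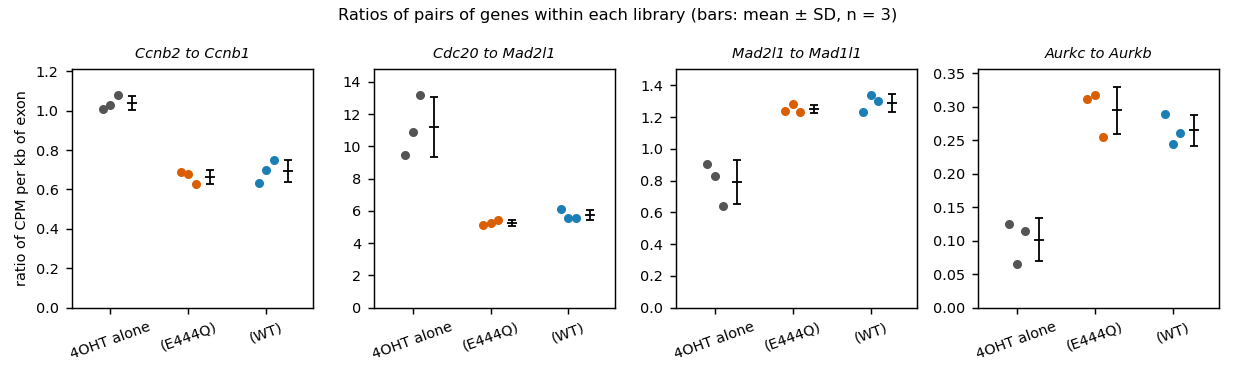
Ratios of CPM per kb of exon for 4 gene pairs (y axes, from 0) in each library (points), with mean ± SD of 3 libraries (bars), for 4OHT alone, PRMT5 (E444Q) and PRMT5 (WT). Ccnb2 to Ccnb1 and Cdc20 to Mad2l1 are highest, and Mad2l1 to Mad1l1 and Aurkc to Aurkb lowest, in the 4OHT libraries.

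Further genes of chromosome segregation, 99 tested in 6 lists that share no gene with the 39, were read in the same way. Against 4OHT, 69 were higher and 6 lower with E444Q, and 74 were higher and 4 lower with WT, with median log2 fold changes of 0.31 and 0.40 beside 0.44 and 0.54 for the 39. For each list, the shares of all genes tested and of genes with at least 5 CPM given above for the 39 are the background. The share of the kinetochore and anaphase-promoting complex lists called in either direction was near that of genes with at least 5 CPM. Most called genes of both lists were higher. Of the genes with at least 5 CPM, 37.8% were higher and 36.4% lower with E444Q, and 39.4% and 36.2% with WT. Of the 34 inner and outer kinetochore genes, 23 were higher and 2 lower with E444Q, and 24 higher and 1 lower with WT. Cenpk, of the inner kinetochore, rose by 1.32 and 1.28, Cenpw by 1.18 with E444Q and Knl1, the platform of the BUB proteins, by 1.14 with WT, while Zwint, which binds KNL1, fell by 0.46 and 0.54 on the log2 scale. Every one of the 8 condensin genes was higher with each construct, with Smc4 at 0.88 and 0.97. Of 13 cohesin and separase genes, 11 and 12 were higher and 0 lower, among them Sgo1, which protects centromeric cohesion, at 0.62 and 0.73, and Pds5b at 0.57 and 0.58.

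The anaphase-promoting complex had members in both directions. Of its 18 genes, 10 were higher and 3 lower with E444Q, and 11 higher and 3 lower with WT. The core subunit Cdc16 changed by -0.57 and -0.63 and Anapc16 by -0.39 and -0.47, while Anapc13 rose by 0.54 and 0.57 on the log2 scale. Of 14 genes of G2/M entry, 12 were higher and 1 lower with E444Q, and 11 higher and 0 lower with WT. Mybl2, the B-Myb subunit of the complex that reads the CHR, was at 46.9, 48.3 and 55 CPM with 4OHT, at 112, 118 and 114 CPM with E444Q and at 121, 126 and 130.4 CPM with WT, a log2 fold change of 1.20 and 1.33. The 1 lower gene was Foxm1, the forkhead factor that acts with it, at -0.22 (adjusted p = 0.0314, overlapping groups) with E444Q and -0.041 (adjusted p = 0.693) with WT, named here after its values were seen. Cdc25c, the phosphatase that activates CDK1, rose by 1.10 and 1.11. Of 12 centrosome genes 5 and 8 were higher and 0 lower, or 41.7% and 66.7% called. This is below the 74.2% and 75.6% of genes with at least 5 CPM called in either direction, of which 37.8% and 39.4% were higher. Between the constructs, Bora, the activator of Aurora A, was the only gene of the 99 past the threshold in edgeR's test, at 33.7, 32.8 and 34.2 CPM with E444Q against 26.8, 29.3 and 28.6 CPM with WT, or 0.25 higher on the log2 scale (adjusted p = 0.043). DESeq2 called Bora too, and also 3 cohesin genes lower with E444Q, Smc1a, Rad21 and Nipbl, named after their values were seen, whose edgeR log2 fold changes were -0.18, -0.14 and -0.14. The model of the 6 construct libraries called 1 higher (Bora) and 9 lower, 4 of cohesin and separase, 3 of G2/M entry, 1 of condensin and 1 of the anaphase-promoting complex.

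Genes of the preceding S phase differed likewise. Of 38 DNA replication genes, 32 were higher and 1 lower with E444Q, and 35 higher and 1 lower with WT, with medians of 0.41 and 0.48 on the log2 scale. Pcna, the sliding clamp, rose by 1.11 and 1.17, and the 1 lower gene in each was Rrm2, a subunit of ribonucleotide reductase, at -0.26 and -0.25. Of 12 meiotic counterparts of segregation genes, 9 and 10 were higher and 0 lower, with medians of 0.77 and 0.91. Ccnb3, a B-type cyclin of meiosis, was at 4.46, 5.40 and 5.17 CPM with 4OHT, at 22.2, 20.6 and 21.9 CPM with E444Q and at 20.6, 22.8 and 21.8 CPM with WT. Its log2 fold changes of 2.10 and 2.12 stand beside 2.30 and 2.23 for Aurkc. Sycp3 rose by 1.46 and 1.56. The list also held larger values, as its log2 fold changes ran from 0.177 to 4.01 with E444Q and from -0.214 to 4.01 with WT. Some other meiotic forms, named after their values were seen, had smaller values than Ccnb3. These were the cohesin subunits Rec8 at 0.57 and 0.61, Stag3 at 0.72 and 0.76 and Smc1b at 0.82 and 0.95. The A-type cyclin Ccna1 was at 0.18 and -0.21, past the threshold in neither comparison. Between the constructs, 0 of these 50 genes passed edgeR's test, 2 had an unadjusted p under 0.05, where 12.4% of all genes did, and DESeq2 called 0. The model of the 6 construct libraries called 1 DNA replication gene and 1 meiotic counterpart lower.

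The makeup of the libraries moved with the same contrasts. The summed level of the 39 genes was 2778 to 2932 CPM in the 4OHT libraries, 3857 to 3981 CPM with E444Q and 4210 to 4255 CPM with WT. All 10 germ cell markers were higher with each construct, and their sum was 1933 to 1968, 3234 to 3339 and 3507 to 3536 CPM in the same order. Of the 15 fibroblast markers, which the mitotically inactivated feeder cells described for SSC culture would carry, 13 were lower and 1 higher with E444Q and 15 lower with WT, with sums of 11840 to 13990, 6948 to 7011 and 5340 to 5433 CPM. The most abundant, Fn1, was at 4957, 1822 and 1488 CPM on average, and between the constructs 14 of the 15 were higher with E444Q. Of 12 macrophage markers, 9 were higher with each construct and 3 and 2 lower, with sums of 173 to 190.0, 1116 to 1150.0 and 2194 to 2317 CPM, led by Lyz2, while C1qa, C1qb and Aif1 were under 1 CPM in every construct library. Sertoli cell markers summed to 26.4 to 30.4, 19.1 to 20.5 and 16.1 to 20.6 CPM, and of the 7 tested 3 were higher and 3 lower with each construct, with Amh and Cst12 at or near 0.

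Relative to the sum of the 10 germ cell markers, the members were lower with the constructs, but this depended on the list used. The log2 ratio of the summed mitotic genes to the summed germ cell markers was 0.545, 0.521 and 0.601 in the 4OHT libraries, 0.281, 0.254 and 0.24 with E444Q and 0.252, 0.264 and 0.279 with WT, higher with 4OHT and overlapping between the constructs. The ratio to the fibroblast markers had the opposite order, at -2.16 ± 0.106 with 4OHT, -0.829 ± 0.0249 with E444Q and -0.348 ± 0.00852 with WT on the log2 scale (SD, n = 3 each), and the ratio to the macrophage markers was 3.99, 1.79 and 0.912 on average. The ratio to DNA replication genes was -0.205 ± 0.0471, -0.119 ± 0.0225 and -0.0744 ± 0.0138 (SD, n = 3 each). Within the germ cell lists, the sum of 10 markers of undifferentiated spermatogonia was 1198 to 1352, 1017 to 1039 and 1055 to 1095 CPM, but its genes went both ways, with 4 higher (Lin28a, Sall4, Utf1 and Pax7) and 5 lower (Gfra1, Ret, Etv5, Zbtb16 and Nanos2) with each construct. The sum of 6 markers of differentiating spermatogonia was 445.6 to 484.6, 800.6 to 807.7 and 839 to 856 CPM. The log2 ratio of the summed mitotic genes to the undifferentiated list was 1.18, 1.94 and 1.97 on average, higher with the constructs. To the differentiating list it was 2.61, 2.29 and 2.32, higher with 4OHT. The part of these lists in the values of the mitotic genes was not tested.

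**Figure D5:**
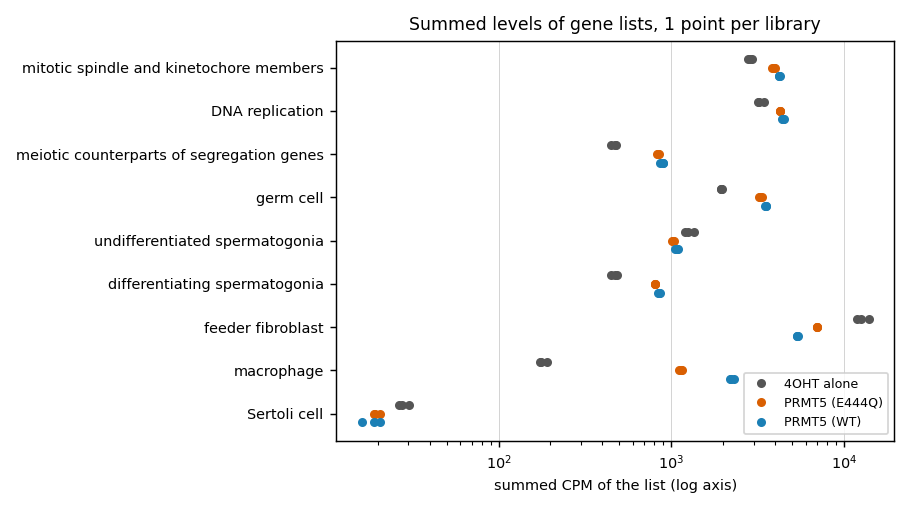
Summed CPM (x axis, log scale) of the 39 mitotic genes and of 8 other lists in each of the 9 libraries, with colour for the group. The sums of mitotic, replication, meiotic, germ cell, differentiating and macrophage genes are lowest in the 4OHT libraries, and the sums of fibroblast, undifferentiated and Sertoli genes are highest there.

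Some members share exons with other genes, which matters as the use of strand is not stated. Besides Kif20a and Cdc20, the share of exon length was 11.1% in Prc1 (with Rccd1), 8.14% in Tacc3 (Tmem129), 7.09% in Plk1 (Gm44985), 4.48% in Cdca8 (9930104L06Rik) and 4.24% in Nusap1 (Oip5, of the kinetochore list). These partners were at 0.421 (Gm44985) to 29.9 (Tmem129) CPM with 4OHT, and Oip5 was higher with the constructs like Nusap1, at 6.40, 12.3 and 11.7 CPM in the order 4OHT, E444Q, WT. The pseudogenes Ccnb1-ps and Ccnb2-ps were at 0.758 to 1.16 and 1.07 to 1.91 CPM on average.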

How the data were processed

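RNA-seq of 9 SSC libraries was used. Paired reads were trimmed by the authors (BBmap, then Trimmomatic 0.39), mapped to the GRCm38 mouse genome (HISAT2 2.2.1) and summed over genes (StringTie 2.2.1). The deposited values are raw counts, whole numbers with no normalization, and how these were derived from StringTie and whether strand was used is not given in the sources used here. Low genes were removed by filterByExpr with the group (at least 10 counts, 15 in total), and counts were scaled by TMM and tested in R 4.3.3 with edgeR 4.0.16 (quasi-likelihood F test, all 9 libraries in 1 model, group as the only factor, common biological coefficient of variation 0.155) with Benjamini-Hochberg adjustment over 22452 genes and a threshold of 0.05. Log2 fold changes carry standard errors and 95% intervals from that model. A count of 3, taken as the floor, is 0.0082 to 0.0381 CPM, and such limits cover counting error only. At the assumed rate of about 4 counts per read pair, this floor is less than a read pair.

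The rule that picks the members uses no measured value, but the members and all lists were chosen with earlier results of these data known. All members are named. Genes of each further list were named from up to 2 higher and 2 lower per comparison, those with the largest fold change among the genes called. They had 1 CPM or more on average and groups that do not overlap. Not every gene that met this rule is named, and genes named outside it are stated. Coordinates and exon lengths are from GENCODE vM21 (GRCm38), and promoters from RefSeq. Alternatives were relative log expression, DESeq2 1.42.0, no filter, counts divided by 4, only the 6 libraries compared, a replicate block, leaving out each library, and a 1.5-fold change. With the counts divided by 4, the squared difference between replicates was on average 3.29 to 18.3 times what counting alone gives, and each library was counted as 1 sample.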

Additional observations from a re-analysis of the deposited data

How the results depend on the processing

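Against 4OHT, the number of members called higher was 32 to 34 with PRMT5 (E444Q) and 34 to 35 with PRMT5 (WT) when 1 library was left out, and the number lower was 2 to 2 and 1 to 2. The medians then ran from 0.423 to 0.496 and from 0.519 to 0.561. With no filter the median was 0.497 with PRMT5 (E444Q) and 1 member was lower with PRMT5 (WT), and with counts divided by 4 the median was 0.507 with PRMT5 (WT). A 1.5-fold change left 16 and 17 members higher and 0 lower, with no share of all genes to set beside them. Between the constructs, the count of lower members (1) was 4 with DESeq2, 9 with the 6 libraries compared, 0 with no filter, 0 with a 1.5-fold change and 0 to 6 when 1 library was left out. The median was -0.0637 with no filter and -0.112 to -0.0794 when 1 library was left out. For the fits with 1 library left out and with no filter, the share of all genes called is not given here. Their counts of members called have no background to be read against. The cause of these shifts was not tested.

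The sign turned for Bub3 between the constructs (-0.00722 with relative log expression, -0.00154 with DESeq2, -0.0196 to 0.0467 when 1 library was left out), and with no filter for Mad1l1 (0.0285) and Kif23 (0.02). Leaving out 1 library gave -0.0228 to 0.0113 for Mad1l1, -0.0148 to 0.167 for Aurkc, -0.0252 to 0.0768 for Cdk1, -0.000997 to 0.0475 for Cenpa, -0.115 to 0.00543 for Nuf2 and -0.0626 to 0.0183 for Kif23. Against 4OHT it turned for Mad1l1 with PRMT5 (E444Q) (-0.0142 with relative log expression, -0.0158 with counts divided by 4, -0.0436 to 0.0763 when 1 library was left out) and with PRMT5 (WT) (-0.0111 with counts divided by 4, -0.0362 to 0.083). Incenp ran from -0.0388 to 0.112 with PRMT5 (E444Q) and Cenpa from -0.0176 to 0.125 with PRMT5 (WT).

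The log2 ratio of the summed members to the germ cell list was 0.533 to 0.573 with 4OHT, 0.247 to 0.268 with PRMT5 (E444Q) and 0.258 to 0.272 with PRMT5 (WT) when 1 library was left out. To the fibroblast list it was -2.21 to -2.11, -0.842 to -0.817 and -0.352 to -0.345. Between groups, deviations of same-numbered libraries correlated at -0.0222 to 0.128, mostly above 0. Those of libraries with different numbers correlated at -0.129 to 0.0986, mostly below 0. The deviations are from the group mean and sum to 0 within a group, so the second range is not independent of the first. All of the correlations are small, and a weak pairing by replicate number is not excluded. The replicate block changed no call of a member, with 34, 35 and 0 higher and 2, 2 and 1 lower.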
